A study of Mus musculus with 12 samples.

Results

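The genes described here are *Trp53*, which encodes the transcription factor p53, together with its inhibitors and its known target genes. The 31 genes were chosen by symbol from what is known of the pathway, and with earlier results of these data known. They were taken out of 17305 genes that the accessions of the arrays' probes named. All 31 were on the array, through 48 of its 41174 probes, and 28 of them were bright enough to test. Kidneys were taken from mouse embryos at embryonic day 14.5 on a C57BL/6 background. One genotype was BdkrB2 null, without the bradykinin B2 receptor, and the other BdkrB2 WT. Both came from heterozygous BdkrB2 parents, and both developed in mothers fed high-salt food (5% sodium), so the salt is shared and was not compared. RNA of the 2 genotypes was hybridised together on 12 2-colour Agilent arrays. In the null/WT orientation the null RNA carried Cy5, and in the WT/null orientation the WT RNA did. Each orientation had 3 replicates of 2 arrays each. The labels leave unsaid how the null allele was made and how many embryos went into a sample.

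p53 is made continuously and destroyed continuously. Mdm2 tags it for degradation and Mdm4 masks the part of it that activates transcription, and damage or stress signals free it from both. The protein then switches on genes that halt the cell cycle, repair DNA, restrain growth or start cell death, and *Mdm2* is itself one of those genes. Much of this control acts on the protein, which arrays do not measure, so the target genes are the usual transcript readout of p53 activity. In mouse kidney development both loss and excess of p53 disturb nephron formation, and earlier work on this gene and diet model tied its malformed kidneys to p53. The comparison asks whether *Trp53*, its inhibitors or its targets had other transcript levels in null than in WT kidneys.

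p53 binds DNA as a tetramer, on a pair of adjoining 10-base consensus sequences. Proximal promoters of 6 members are shown because they hold a match to that 10-base consensus close to the gene's start. None shows an adjoining pair of exact matches, since 5 hold a single match and those of *Cdkn1a* are apart. Only exact matches were searched, so an adjoining copy that departs from the consensus would not be marked. They come from RefSeq windows on build GRCm38.p6, read 5′ to 3′ on the gene's strand, with each match in capitals. The *Trp53* stretch is chr11:69580244-69580333 on the plus strand, *Mdm2* chr10:117710895-117710984 on the minus strand and *Ccng1* chr11:40755422-40755511 on the minus strand. The *Cdkn1a* stretch is chr17:29090866-29090977 on the plus strand, *Bax* chr7:45467050-45467139 on the minus strand and *Aen* chr7:78895897-78895986 on the plus strand.
Trp53: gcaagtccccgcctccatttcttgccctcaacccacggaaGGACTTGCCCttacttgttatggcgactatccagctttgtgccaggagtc
Mdm2: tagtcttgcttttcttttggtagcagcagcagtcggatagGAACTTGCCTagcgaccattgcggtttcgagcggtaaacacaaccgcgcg
Ccng1: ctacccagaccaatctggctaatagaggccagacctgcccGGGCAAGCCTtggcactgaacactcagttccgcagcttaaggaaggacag
Cdkn1a: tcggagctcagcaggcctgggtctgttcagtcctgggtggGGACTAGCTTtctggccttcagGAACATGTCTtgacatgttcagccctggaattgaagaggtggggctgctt
Bax: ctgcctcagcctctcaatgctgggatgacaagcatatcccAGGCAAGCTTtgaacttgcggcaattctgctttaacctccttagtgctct
Aen: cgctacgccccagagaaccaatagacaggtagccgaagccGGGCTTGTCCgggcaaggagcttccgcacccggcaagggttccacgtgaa

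The first capital lies 75 bases before the annotated start in *Trp53*, 186 in *Mdm2*, 185 in *Ccng1*, 201 in *Bax* and 121 in *Aen*. *Aen* has another annotated start, and the same match lies just after that one. The *Cdkn1a* matches lie 73 and 51 bases before it. The windows ran from 250 bases before a start to 50 after it, and the p53 decamer consensus was searched in its exact form, which reads the same on both strands. A match was found in 11 of the 23 members with a window (47.8%), against 9.55% of 27025 genes with one. *Cdkn1a* was the only one of these 23 with 2 matches in a window. A match is a run of letters and not a shown binding site. *Ddb2*, *Perp*, *Pmaip1*, *Rrm2b*, *Tnfrsf10b*, *Trp53inp1*, *Xpc* and *Zmat3* had no entry.

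Between 40.5% and 57.8% of the null spots and 47.8% to 59.4% of the WT spots on an array were well above background, and the lowest share was that of the null channel on the first array of WT/null replicate 3. That array also had the widest log2 ratios (SD 0.38, against 0.16 to 0.26 on the other 11), and its replicate had the lowest correlation between duplicate arrays, 0.711, against 0.824 to 0.923. Each slide of 4 arrays held both orientations of 1 replicate number, so slide 1 is replicate 1 of both. All 8 kidney progenitor markers were bright enough to test, and so were 6 of 7 ureteric bud markers, the exception being *Ret*, above background in 1 of 24 channels. The *Bdkrb2* probe was above background in 1 of 24 channels and could not check the genotype labels. *Ddx3y*, on the Y chromosome, was above background in 0 null and 8 WT channels. Its log2 ratio of null over WT was -0.01, -3.12 and -2.52 on slides 1 to 3, and that of *Xist*, which female cells express, 0.20, 2.42 and 1.89. The genotypes thus differed in embryo sex on slides 2 and 3 and showed no such difference on slide 1, and the part of sex in the results was not tested.

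No gene of the p53 group passed the threshold for a genotype difference, and the median of the group lay beside that of all genes. An adjusted p under 0.05 was reached by 0 of 28 tested members, where 0.0237% of the 12647 tested genes reached it (limma, Benjamini-Hochberg adjustment over 22979 probes). The same holds for 0 of the 42 tested member probes, where 0.0392% of all tested probes passed, 9 in number. With the replicate number as a block 0 member probes passed, where 0.0174% of all tested probes did. At an unadjusted p under 0.05, 3 of the 42 member probes were counted, where 7.01% of all tested probes were. The smallest adjusted p of a member was 0.615, and 0.904 with the block. By genes, 2 of 28 members reached an unadjusted p under 0.05, *Pmaip1* and *Plk2*, both higher in null, where 7.78% of all tested genes were. With the block there were 3, with *Sesn2* added, where 3.49% of all genes were. The log2 ratio of null over WT lay above 0 for 13 members and below 0 for 15, which is 46.4% above 0 against 48.1% of all tested genes. The median member stood at -0.01 and the median gene at 0.00, and the median absolute log2 ratio was 0.05 in both.

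The precision sets what these values can show. Member values ran from -0.16 to 0.19 on the log2 scale, and none exceeded 0.25 in size, against 1.58% of all tested genes. The 95% intervals of the 28 members lay between -0.35 and 0.32, that is between 1.27-fold lower and 1.25-fold higher in null. With the replicate block they lay between -0.32 and 0.36. All 28 intervals lay within 0.5 of 0 (1.41-fold) in both fits, and 19 lay within 0.25 (1.19-fold). These intervals hold the spread between replicates after loess normalization and not the choice of normalization. With median centring instead, the median member stood at 0.17 and the median tested probe at 0.14, against -0.01 for both. What could be resolved differed by gene, with a standard error of 0.04 for *Bax* and 0.10 for *Perp*. The intervals of *Pmaip1* and *Plk2* left out 0 before adjustment, where 7.78% of all tested genes had an unadjusted p under 0.05 (limma). In whole kidneys, fewer cells of a type and less RNA per cell cannot be told apart, and a change in a few cells would be diluted.

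**Figure D1:**
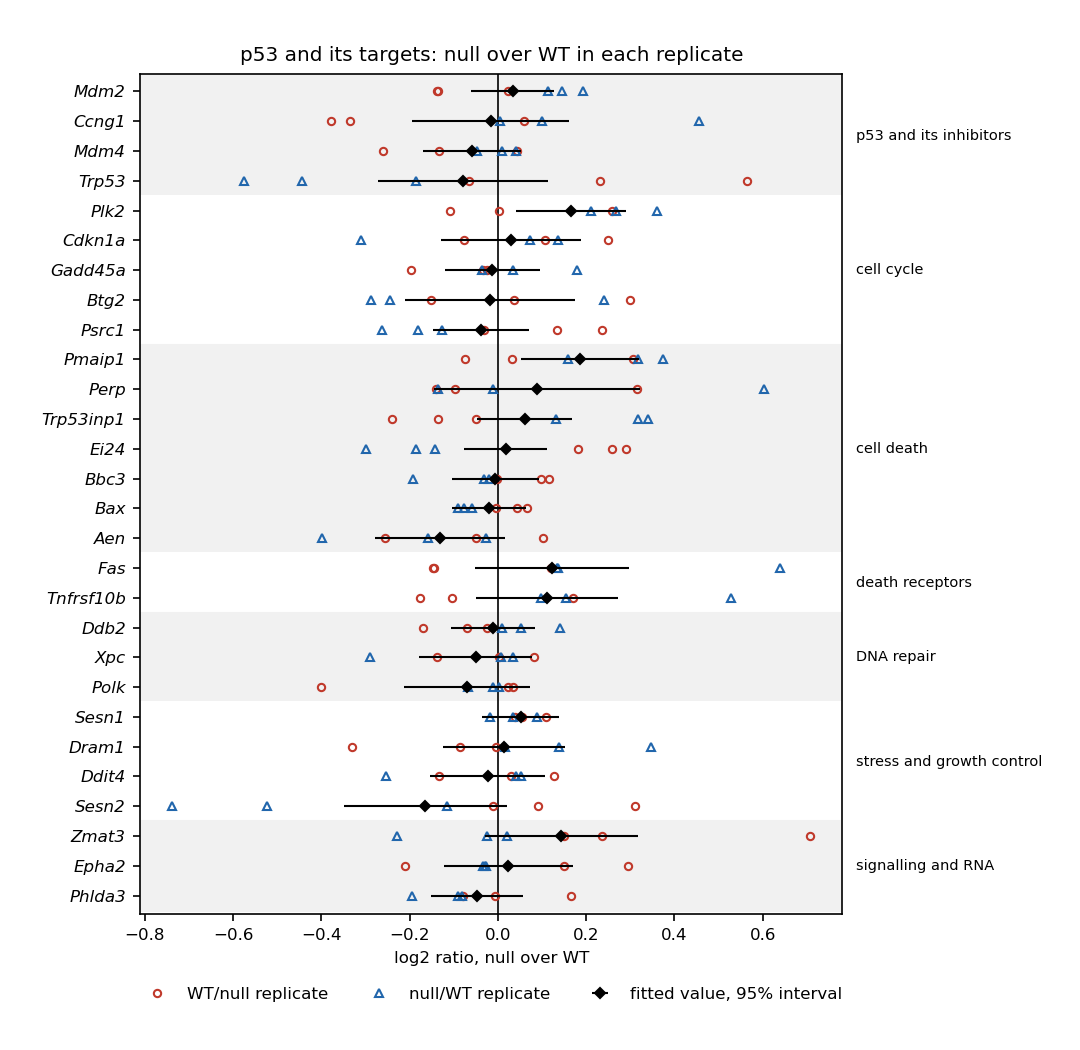
The log2 ratio of null over WT (x axis) of the 28 tested members, grouped by role, with 1 small point per replicate and dye orientation, and the fitted value with its 95% interval (limma, n = 6 replicates). Fitted values lie between -0.16 and 0.19, and no gene has all 6 replicates on the same side of 0.

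Among p53 and its inhibitors, none of the 4 genes differed past the threshold. The brightest *Trp53* probe read 0.23, -0.07 and 0.57 (log2 null over WT) in WT/null replicates 1 to 3, and -0.44, -0.19 and -0.57 in null/WT replicates 1 to 3. The sign thus went mostly with the dye. Its normalised log2 signal had a lowest, median and highest value of 9.25, 9.46 and 10.10 in null, and of 9.37, 9.50 and 10.07 in WT. The genotypes overlapped almost entirely. The fitted ratio was -0.08 ± 0.08 (SE, n = 6), with a 95% interval from -0.27 to 0.11 and a limma adjusted p of 0.772. The other tested *Trp53* probe, whose dye term was of the opposite sign (0.17 against -0.32), gave -0.08 ± 0.06. Null over WT averaged within slides was -0.06, -0.10 and -0.07 for that probe, and -0.11, -0.13 and 0.00 for the brightest. Leaving out 1 replicate moved the brightest probe between 0.00 (without WT/null replicate 2) and -0.16 (without WT/null replicate 3).

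*Mdm2* encodes the ligase that degrades p53 and is a sensitive p53 target. It read 0.02, -0.14 and -0.14 in the WT/null replicates and 0.19, 0.11 and 0.15 in the null/WT replicates. Levels spanned 8.17 to 8.30 in null, within the 8.05 to 8.39 of WT. The fit gave 0.03 ± 0.04 (interval -0.06 to 0.13, limma adjusted p = 0.796), and the other probe 0.02 ± 0.04. *Mdm4*, whose product blocks p53's activation domain, read -0.13, 0.04 and -0.26 in the WT/null and 0.01, -0.05 and 0.04 in the null/WT replicates. The *Mdm4* fit was -0.06 ± 0.05 (limma adjusted p = 0.737). Its genotypes overlapped too, from 7.38 to 7.57 in null and from 7.49 to 7.64 in WT.

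*Ccng1*, encoding cyclin G1, is a p53 target that helps Mdm2 restrain p53. Its brightest probe read -0.34, -0.38 and 0.06 in the WT/null replicates and 0.01, 0.10 and 0.46 in the null/WT replicates. Slides 1 and 2 were below 0, at -0.17 and -0.14, and slide 3 above it at 0.26. The fit was -0.02 ± 0.08 (limma adjusted p = 0.952), and the other tested probe stood at 0.03 ± 0.06. Neither sign can be assigned to this gene.

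**Figure D2:**
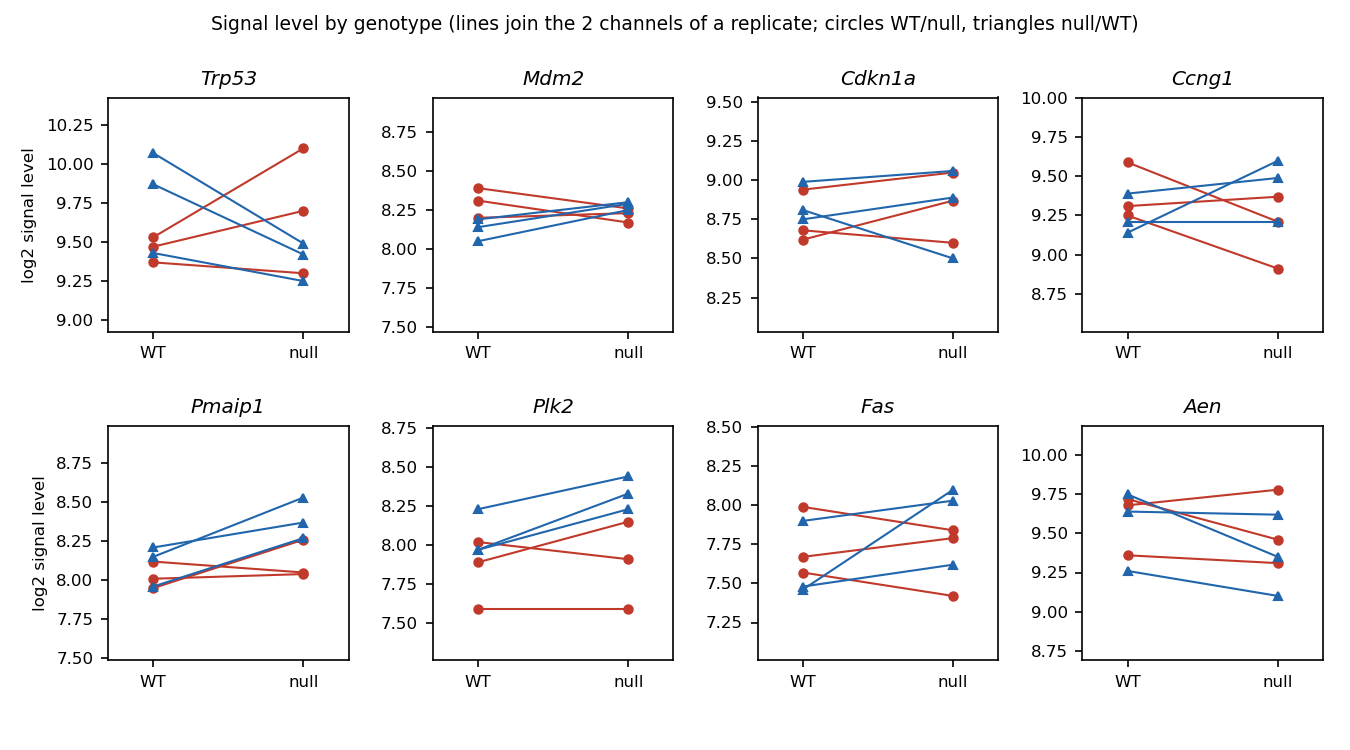
Normalised log2 signal (y axis) of the brightest probe of selected members in the null and WT channels, 1 point per replicate (6 a genotype), with the points of a replicate joined. Null and WT levels overlap in every gene drawn, as they did in all 28 tested members.

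Of the 6 cell-cycle genes, 5 were tested and *Gtse1* was not above background in any channel. *Cdkn1a* encodes p21, the kinase inhibitor through which p53 halts the cell cycle at G1. It read -0.08, 0.11 and 0.25 in the WT/null and -0.31, 0.07 and 0.14 in the null/WT replicates. Replicate 1 was below 0 and replicates 2 and 3 above it, whichever the dye. Levels ran from 8.50 to 9.06 in null and from 8.62 to 8.99 in WT, with medians of 8.88 and 8.78. The fitted ratio was 0.03 ± 0.07 (interval -0.13 to 0.19, limma adjusted p = 0.892). Within slides it was -0.19, 0.09 and 0.19.

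*Plk2*, a polo-like kinase gene induced by p53 in a damage checkpoint, read 0.00, -0.11 and 0.26 in the WT/null and 0.27, 0.21 and 0.36 in the null/WT replicates. Of the 6 replicates, 5 were above 0, but the null levels of 7.59 to 8.44 overlapped the WT levels of 7.59 to 8.23. The fit gave 0.17 ± 0.05, a 1.12-fold higher null signal (unadjusted p = 0.0160, limma adjusted p = 0.640). *Btg2*, an antiproliferative gene, had 3 tested probes at -0.02, -0.02 and 0.04. On its brightest probe the replicates read 0.04, -0.15 and 0.30 (WT/null) and -0.29, 0.24 and -0.25 (null/WT), with a fitted -0.02 ± 0.08 and a limma adjusted p of 0.950. *Gadd45a*, a stress sensor that slows the cycle at G2, stood at -0.01 ± 0.05, and *Psrc1* at -0.04 ± 0.05. These members lay on both sides of 0 with no common direction.

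All 7 cell-death genes were tested, 4 of them above 0 and 3 below. *Pmaip1* encodes Noxa, a BH3-only protein that sets mitochondrial apoptosis going. It read 0.03, -0.08 and 0.31 in the WT/null and 0.32, 0.16 and 0.37 in the null/WT replicates. It was higher in null in 5 of 6 replicates, but the levels overlapped, with a lowest, median and highest of 8.04, 8.27 and 8.53 in null and of 7.95, 8.07 and 8.21 in WT. The fit was 0.19 ± 0.06 (1.14-fold, interval 0.05 to 0.32), the smallest p among brightest member probes at 0.0124 unadjusted, with a limma adjusted p of 0.615. In the fit with the replicate block, p was 0.0330 and the adjusted p 0.904. The slide values were 0.18, 0.04 and 0.34, so the size came from slides 1 and 3. Without slide 3 the *Pmaip1* ratio was 0.11 and that of *Plk2* 0.09.

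The other BH3-only gene and the pore-former were among the most tightly measured members. *Bbc3*, encoding Puma, stood at -0.01 ± 0.04 (interval -0.10 to 0.09). *Bax*, whose product permeabilises mitochondria, stood at -0.02 ± 0.04 (interval -0.11 to 0.06), with all 6 replicates between -0.09 and 0.07. Both intervals lay within 0.25 of 0 (1.19-fold). *Perp*, a membrane protein gene, stood at 0.09 ± 0.10, with slide values of -0.08, -0.12 and 0.46. *Ei24* stood at 0.02 ± 0.04 and *Trp53inp1*, a stress-induced nuclear partner of p53, at 0.06 ± 0.05.

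*Aen*, which encodes an apoptosis-enhancing nuclease, had the smallest p of the members below 0. Its brightest probe read 0.10, -0.05 and -0.26 in the WT/null and -0.03, -0.16 and -0.40 in the null/WT replicates, and its slides 0.04, -0.10 and -0.33. The fit was -0.13 ± 0.06 (unadjusted p = 0.0739, limma adjusted p = 0.710). The other, dimmer probe was below 0 in 6 of 6 replicates, at -0.05, -0.04, -0.27, -0.40, -0.04 and -0.35. It was well above background in 10 null and 12 WT channels of 12 each, with a gap of up to 0.76 between duplicate arrays. Its value was -0.19 ± 0.06 (unadjusted p = 0.0120, limma adjusted p = 0.612). The probes shared a direction, and neither passed the threshold. Without slide 3 the brightest *Aen* probe stood at -0.03.

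Of the death receptors *Fas* and *Tnfrsf10b* were tested, whereas *Eda2r* was not above background in any of the 24 channels. Both receptors start apoptosis from the cell surface when ligand binds. *Fas* read -0.15, -0.15 and 0.12 in the WT/null and 0.13, 0.14 and 0.64 in the null/WT replicates. Slides 1 and 2 were at -0.01 each and slide 3 at 0.38, so the fitted 0.12 ± 0.08 (interval -0.05 to 0.30, limma adjusted p = 0.724) came from slide 3. Without that slide it was -0.01. *Tnfrsf10b* (brightest probe) read 0.17, -0.18 and -0.10 in the WT/null and 0.53, 0.10 and 0.15 in the null/WT replicates. Its value of 0.11 ± 0.07 (limma adjusted p = 0.726) came from slide 1, at 0.35, and was -0.01 without it. The other tested probes of *Tnfrsf10b* stood at -0.02 and -0.05.

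The 3 tested DNA repair genes all lay below 0, within 0.07 of it, and *Rrm2b*, a ribonucleotide reductase subunit, was not above background in any channel. *Ddb2*, which recognises ultraviolet damage, stood at -0.01 ± 0.04, and *Xpc*, its partner in nucleotide excision repair, at -0.05 ± 0.06. *Polk*, a polymerase that copies past lesions, read 0.03, 0.02 and -0.40 in the WT/null and -0.01, 0.00 and -0.07 in the null/WT replicates. It was near 0 in all but WT/null replicate 3, the replicate with the array that stands apart, and its fitted -0.07 ± 0.06 became 0.00 without that replicate. *Polk* was well above background in 10 null and 11 WT channels of 12 each.

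Among the genes of stress and growth control, *Sesn2* had the lowest value of all members. Sestrins and *Ddit4* restrain mTOR signalling when cells are stressed, and *Dram1* promotes autophagy. *Sesn2* read -0.01, 0.09 and 0.31 in the WT/null and -0.52, -0.12 and -0.74 in the null/WT replicates, which split largely by dye. Averaging over both dyes left -0.27, -0.01 and -0.21 on the 3 slides. The fit was -0.16 ± 0.08 (interval -0.35 to 0.02, limma adjusted p = 0.710). With the replicate block the unadjusted p was 0.0428 and the adjusted p 0.904. Null levels of 8.96 to 9.56 overlapped WT levels of 8.97 to 9.71. *Sesn1* stood at 0.05 ± 0.04, *Ddit4* at -0.02 ± 0.06 and *Dram1* at 0.01 ± 0.06.

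Of the remaining targets, which act in signalling and on RNA, *Zmat3* had the highest value. Its product is an RNA-binding zinc finger protein. It read 0.23, 0.15 and 0.71 in the WT/null and 0.02, -0.23 and -0.02 in the null/WT replicates. The high value of WT/null replicate 3 rested on duplicate arrays that differed by 0.79, the widest duplicate gap among the brightest member probes. The fit was 0.14 ± 0.08 (interval -0.03 to 0.32, limma adjusted p = 0.711). It was 0.06 without that replicate and 0.04 without slide 3. *Phlda3*, a repressor of Akt, read -0.01, 0.17 and -0.08 and then -0.09, -0.08 and -0.19, with a fit of -0.05 ± 0.05 (limma adjusted p = 0.756). *Epha2*, an ephrin receptor gene, stood at 0.02 ± 0.06.

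Member values spread most widely on slide 3. On slide 1, 2 of 28 members had a log2 ratio over 0.25 in size (*Tnfrsf10b* and *Sesn2*), which is 7.14% against 2.81% of all tested genes. On slide 2 there was none, against 2.08%. On slide 3 there were 7, *Plk2*, *Aen*, *Perp*, *Pmaip1*, *Fas*, *Ccng1* and *Zmat3*, which is 25.0% against 15.6% of all tested genes. All of these but *Aen* were higher in null on that slide. The median over the members was nevertheless 0.01, -0.01 and 0.00 on slides 1 to 3. Several marker lists of cell types also had their highest ratios on slide 3: the median of the tested skeletal muscle markers was 0.14, 0.45 and 2.23 on slides 1 to 3, and that of early nephron and tubule markers 0.02, 0.13 and 0.55. Of 7 muscle markers 6 were tested and 5 of those were above 0. Their summed linear signal ranged from 1290 to 4340 over the null replicates and from 1270 to 1450 over the WT replicates, and *Ckm*, which defines mature muscle, was above background in 1 of 24 channels. Leukocyte markers had a median of 0.05, 0.02 and 0.26, and erythroid markers of -0.24, -0.06 and 0.32. Other lists went the other way on slide 3. Kidney progenitor markers had a median of 0.05, -0.02 and -0.11, and ureteric bud markers of -0.02, 0.07 and -0.18. Stroma markers were on the null side on every slide, with medians of 0.21, 0.18 and 0.23. All 7 were tested, 6 lay above 0, 5 had an unadjusted p under 0.05 and 0 passed the adjusted threshold, with *Lum* at 0.49 ± 0.08 and *Dcn* at 0.35 ± 0.06. Endothelial markers had medians of 0.12, 0.04 and 0.14, with all 5 fitted values above 0. The part of these cell types in the member values was not tested.

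**Figure D3:**
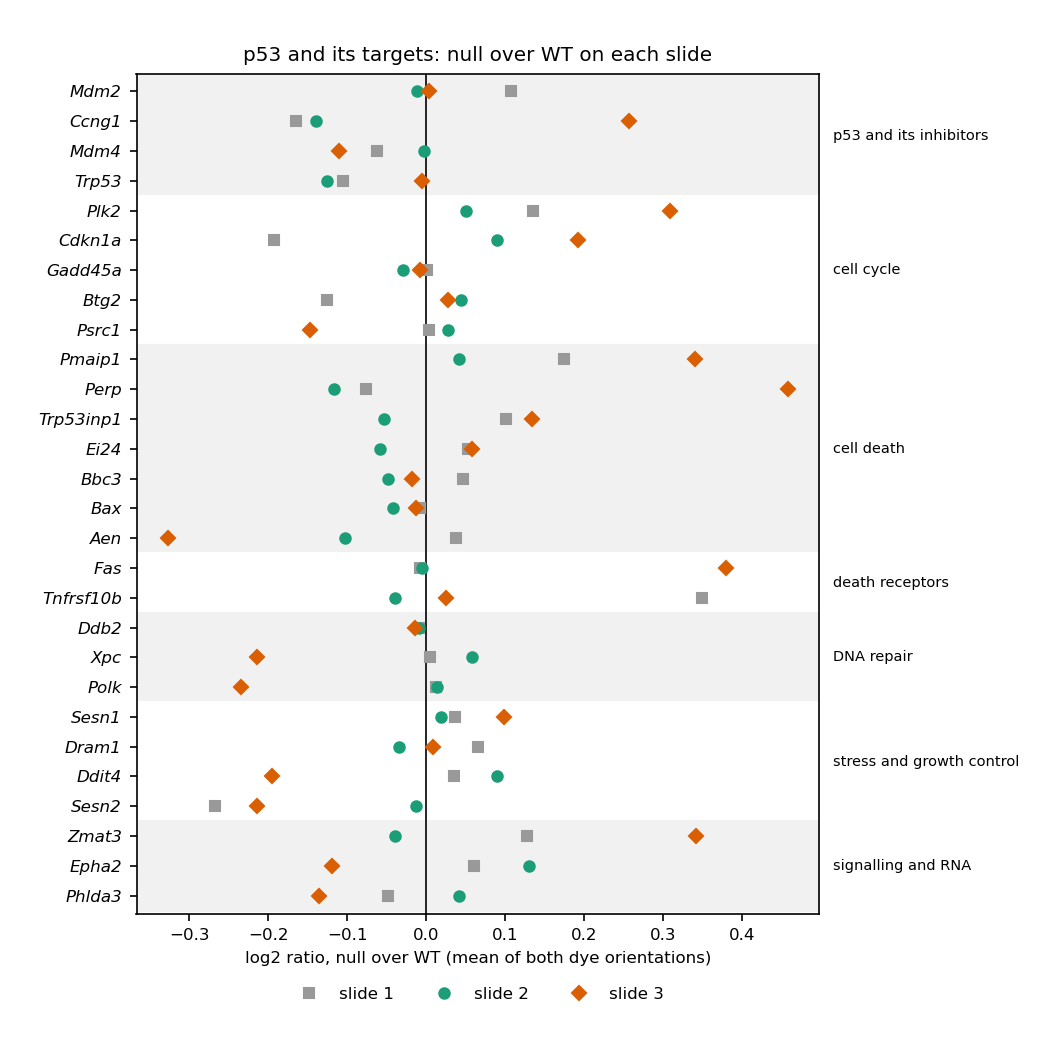
Null over WT (log2, mean of both dye orientations) of each tested member on slides 1, 2 and 3. Values stay within 0.25 of 0 for all 28 members on slide 2 and exceed it for 2 on slide 1 and for 7 on slide 3.

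For most members, *Trp53* among them, the dye term of the brightest probe was larger in size than its genotype term. The dye term passed an adjusted p of 0.05 for 6 of the 42 member probes, against 13.5% of all tested probes, and for the brightest probe of 4 members, against 15.7% of all tested genes, and these were *Trp53* (-0.32, limma adjusted p = 0.0406), *Sesn2* (-0.29, adjusted p = 0.0484), *Ei24* (-0.23, adjusted p = 0.0132) and *Trp53inp1* (0.20, adjusted p = 0.0283). A complete split of the 6 replicates by orientation was seen in 4 of 28 members, against 24.9% of all tested genes. The opposite pattern, the same genotype direction in all 6 replicates, was seen in 0 of 28, against 3.04%. Null and WT levels without overlap were seen in 0 of 28, against 0.0949%.

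**Figure D4:**
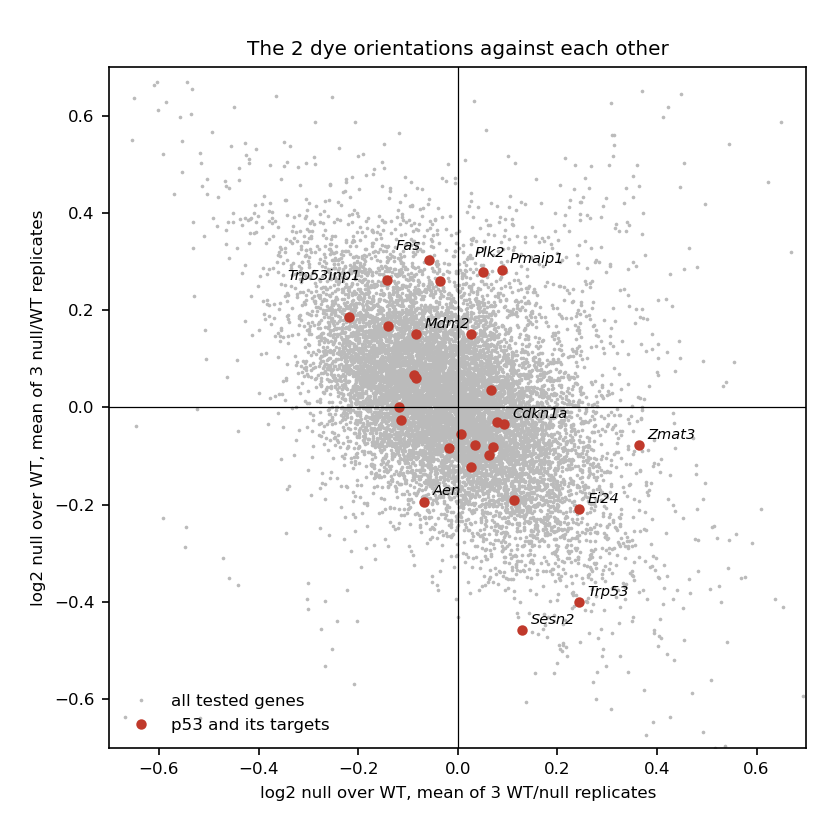
Mean log2 null over WT of the 3 WT/null replicates (x axis) against that of the 3 null/WT replicates (y axis), for all tested genes in grey and the 28 tested members in red; 57 genes lie outside the axes, which end at 0.7. Genes with a genotype difference lie in the upper right or lower left, and *Trp53*, *Sesn2* and *Ei24* lie in the lower right, where the sign goes with the dye.

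Members with and without a promoter match had overlapping values. The 10 tested members with a p53 decamer in the window had a median log2 ratio of -0.01 (-0.13 to 0.05), and the 11 with a window but no match had -0.02 (-0.16 to 0.17). The 6 members whose promoters are shown above span *Aen* at -0.13 to *Mdm2* and *Cdkn1a* at 0.03.

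Genes around the p53 group were read from lists of 96 further pathway genes, of which 85 were tested and 0 passed the threshold. At an unadjusted p under 0.05, 5 were higher and 2 lower, 7 of 85 in all, a share near the 7.78% of all tested genes. Of the 85, 34 lay above 0 and 51 below, where 48.1% of all tested genes lay above 0, and the median was -0.02 against 0.00. The upstream kinases and damage sensors, which phosphorylate or report to p53, had 16 of 18 tested, 4 above 0 and 12 below. Of the genes above 0, the smallest p belonged to the damage kinases *Atm* (0.03 ± 0.05), *Atr* (0.04 ± 0.06) and *Prkdc* (0.02 ± 0.07). Some other kinases of the list lay below 0. The smallest p of the genes below 0 belonged not to kinases but to sensors of broken or stalled DNA. These were *Mre11a* (-0.09 ± 0.04), *Rad9a* (-0.07 ± 0.05) and *Nbn* (-0.05 ± 0.04). Other regulators of p53 protein had 18 of 20 tested, 7 above 0 and 11 below. The ribosomal protein *Rpl11*, which binds Mdm2 under nucleolar stress, stood at 0.08 ± 0.04 and the corepressor *Trim28* at -0.09 ± 0.07. Of the p53 family, *Trp63* stood at -0.04 ± 0.07 and *Trp73* at -0.08 ± 0.07.

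Further p53 targets divided evenly, with 15 of 30 tested genes above 0. *Thbs1*, the antiangiogenic thrombospondin gene, had the smallest p among them. It read 0.12, 0.12 and 0.18 in the WT/null and 0.33, 0.10 and 0.38 in the null/WT replicates, above 0 in each. The fit was 0.20 ± 0.05 (unadjusted p = 0.00231, limma adjusted p = 0.414). *Cd82*, a tetraspanin gene, stood at 0.12 ± 0.04 and *Shisa5*, a death inducer of the endoplasmic reticulum, at 0.13 ± 0.05. *Bid*, a BH3-only gene, stood at -0.13 ± 0.04 and *Tigar*, which restrains glycolysis, at -0.14 ± 0.05. None of these passed the adjustment. Cell-cycle genes that fall when p53 is active had 5 of 15 tested genes above 0, *Cenpf* being highest at 0.15 ± 0.06. *Cdk1* stood at -0.08, *Aurka* at -0.07 and *Cdc25c* at -0.09.

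Kidney genes tied to p53 were read last. *Aqp2*, the water channel gene of the collecting duct, read -0.06, 0.31 and 0.87 in the WT/null and 0.11, 0.11 and 0.71 in the null/WT replicates. It was higher in null in 5 of 6 replicates, by 0.34 ± 0.12 (unadjusted p = 0.0231, limma adjusted p = 0.668), with slide values of 0.03, 0.21 and 0.79. *Cdh1*, encoding E-cadherin, stood at 0.01 ± 0.06 and *Pax2*, a nephric transcription factor gene, at 0.00 ± 0.04.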

How the data were processed

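Median spot and local background intensity per dye was deposited without further normalization, per the file headers, beside the scanner's log10 ratio of Cy5 over Cy3. Headers name Agilent Feature Extraction 10.5.1.1 and the submitters' processing notes version 6.1. The authors' value table held log10 ratios, used only as an alternative. No per-sample column (0) lacked a sample.

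After normexp background correction (offset 50), loess normalization within each array gave log2 ratios; control spots and 101 to 262 outlier spots per array had weight 0 in the loess and were then removed. Duplicate arrays were averaged, leaving 6 replicates. Tested probes had to be well above background on 6 or more of the 12 arrays in either genotype's channel. Levels were scaled between arrays with Aquantile. The genotype difference was estimated in R 4.3.3 with limma 3.58.1 beside a dye term, and the threshold was a Benjamini-Hochberg adjusted p under 0.05 over 22979 probes. Gene symbols came from accessions matched to RefSeq (GRCm38.p6), which named 25097 probes; the array header names mm9, so no probe position is given. A gene is its brightest tested probe; of 10 members with several, 3 had probes of opposite sign. The number of arrays limits precision (median standard error of members 0.0575, log2).

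Replicates of a number share a slide and deviated together from their orientation means (correlations 0.587, 0.517 and 0.413), so the pairing was taken from the slide and these data, and a fit with the replicate block was run beside the unpaired one. Labels do not say whether both orientations used the same extracts; if so, unpaired p-values are too small, and they may measure technical spread. Other alternatives were background correction, centring, starting values, the filter on dim probes, treatment of duplicates and probes, and leaving out slides, replicates or 1 array. Values in every replicate are given for *Trp53*, *Mdm2*, *Mdm4* and *Cdkn1a*, up to 5 members in each direction with the smallest p, and members whose probes disagree in sign. In other lists up to 3 genes in each direction by p were eligible to be named. A further gene that was eligible is not reported here. Members and lists were chosen with earlier results of these data known. The fit was tested on simulated data.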

Additional observations from a re-analysis of the deposited data

Results flagged for a closer look

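In 2 of 28 tested members 1 replicate stood far from the other 5 by Dixon's criterion, which chance meets in about 1 of 20 groups of independent values. Replicates of a slide deviated together, and the share over all tested genes is not given, so the count is not read as a result about the members. *Fas* read 0.64 (log2 null over WT) in null/WT replicate 3, where the other replicates lay between -0.15 and 0.14. *Polk* read -0.40 in WT/null replicate 3, where the others lay between -0.07 and 0.03. Both replicates lie on slide 3.

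The dye orientations gave different ratios, by a test of the dye term, for *Ei24* (-0.23), *Sesn2* (-0.29), *Trp53* (-0.32) and *Trp53inp1* (0.20). The sign is that of the null/WT against the WT/null orientation. The value is the distance of either orientation's mean from the fitted ratio, not the larger distance between the orientations.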

How the results depend on the processing

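No member passed the threshold under any of the 20 alternatives run, with a smallest member adjusted p between 0.238 and 0.953 (limma). With the replicate block, which follows the pairing by slide, 4 probes passed of all tested in place of 9, and no call on a member changed. The probe count was 148 with duplicates as a random block, 15 when the first array of WT/null replicate 3 was dropped, 3 without slide 2, 62 without slide 3, and 5 to 12 when 1 replicate was left out. Median centring in place of loess moved the median of all tested probes to 0.14 and that of the members to 0.17, with 27 of 28 members above 0, and called 5 of 6 probes higher against 5 of 9. It turned the sign of 14 members, among them, of those given by replicate, *Aen* (0.04), *Btg2* (0.14), *Ccng1* (0.15), *Mdm4* (0.06), *Phlda3* (0.16), *Sesn2* (0.01) and *Trp53* (0.10). Member directions thus depend on the normalization. The sign turned in 6 of 28 members without slide 1, 4 without slide 2 and 8 without slide 3. Of those given by replicate they were, without slide 1, *Btg2* (0.04), *Ccng1* (0.06), *Mdm2* (0.00) and *Tnfrsf10b* (-0.01), without slide 2 *Ccng1* (0.05) and *Cdkn1a* (0.00), and without slide 3 *Cdkn1a* (-0.05), *Fas* (-0.01) and *Polk* (0.01). *Ccng1* was 0.01 as the mean of its probes. Leaving out 1 replicate gave a member median of -0.01 to 0.02, *Btg2* -0.10 to 0.04, *Ccng1* -0.09 to 0.03, *Cdkn1a* -0.01 to 0.10 and *Polk* -0.11 to 0.00. The causes were not tested. Limits: 3 replicates an orientation, possibly shared extracts, unequal embryo sex on slides 2 and 3, muscle markers high in null on slide 3, a dye effect on several members, whole-kidney RNA, and no protein or normal-salt samples analysed here.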
